A study of Homo sapiens with 12 samples.

Results

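The ATP-binding cassette (ABC) transporter genes were examined in 2 non-small cell lung cancer cell lines exposed to inhibitors of the epidermal growth factor receptor (EGFR). Members were chosen by symbol, as genes named ABC, a subfamily letter from A to G and a number, which gave 46 of the 60591 genes in the count table. Polyadenylated RNA was sequenced from PC9 and H1650 cells, both established lines whose genotype label is wild-type, with no engineered change named. By the study's text both lines carry an activating EGFR deletion. Each line was collected at T0, with 0.1% DMSO at 0 h, and after 36 h in 10 µM erlotinib or 0.1 µM osimertinib, with 2 libraries in each of the 6 groups. Erlotinib is a reversible EGFR inhibitor and osimertinib a covalent one. No vehicle library at 36 h was analysed here, so a change from T0 with a drug and a change with time in culture cannot be told apart. The study's text calls replicates of the PC9 erlotinib comparison biological and describes the other drug comparisons by reference to it. The labels name no separate cultures, so p-values measure only the spread between these libraries, which may be technical.

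ABC proteins use ATP to move substrates across membranes or, in a few cases, to remodel ribosomes. Subfamily A moves lipids, B holds the multidrug pump ABCB1 beside mitochondrial and lysosomal transporters, C holds the multidrug resistance proteins that export conjugated anions, and D serves peroxisomes and lysosomes. Subfamilies E and F have no membrane-spanning domain and act in translation, and G moves sterols and drugs. ABCB1, ABCC1 and ABCG2 are the members best known for drug efflux, and kinase inhibitors are among the substrates of ABCB1 and ABCG2.

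The 12 libraries held 17961765 to 26346187 counts, and the ABC genes took 0.138% to 0.226% of them. A level of 3 reads, taken as the floor per library, was worth 0.116 to 0.168 CPM (counts scaled to a fixed library total, corrected by the trimmed mean of M values). Of the 46 members, 31 passed the expression filter and were tested. The 15 others were ABCA6, ABCA8, ABCA9, ABCA10, ABCB1, ABCB4, ABCB5, ABCC8, ABCC9, ABCC12, ABCC13 (annotated as a pseudogene), ABCD2, ABCG4, ABCG5 and ABCG8, and none of them reached more than 15 reads in a library. ABCB5, ABCC12 and ABCD2 had 0 reads in all 12 libraries. Both lines carried the epithelial markers at a summed 6613 to 14617 CPM, whereas the 5 lung lineage markers summed to at most 2.15 CPM in PC9 and 5.83 CPM in H1650, with NKX2-1, SFTPB and SFTPC under 1 CPM everywhere. The other lung lineage markers were tested, and NAPSA rose with both drugs in PC9 while SFTPD rose with erlotinib in PC9 and with both drugs in H1650. Their part in the results was not tested. Leukocyte markers summed to at most 3.96 CPM, endothelial markers to at most 5.83 CPM and mesenchymal markers to at most 45.9 CPM. Mitochondrial genes took 4.54% to 5.17% of counts in PC9 T0 and 6.32% to 7.20% in treated PC9 libraries, and 4.36% to 5.36% in H1650 T0 and 5.77% to 6.60% after treatment, and the part of this share in the results was not tested. All values are from bulk RNA, in which fewer cells expressing a gene and less RNA per cell cannot be told apart.

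The promoters of 3 members are shown for members described below: ABCA2 rose and ABCB10 fell with both drugs in both lines, and ABCC2 was high in PC9 and low in H1650. RefSeq promoter sequences on GRCh38.p14 were found for 35 of the 46 members. Each run is the 250 bases before the gene's start, 5′ to 3′ on the gene's strand. Capitals mark the letters GGGCGG in ABCB10 and TATAAA in ABCC2.
ABCA2 (chr9:137028923-137029172, minus strand): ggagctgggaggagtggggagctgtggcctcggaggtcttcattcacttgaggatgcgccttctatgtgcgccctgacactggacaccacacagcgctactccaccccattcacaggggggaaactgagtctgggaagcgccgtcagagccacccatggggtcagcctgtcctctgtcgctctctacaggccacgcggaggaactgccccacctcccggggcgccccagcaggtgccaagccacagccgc
ABCB10 (chr1:229558708-229558957, minus strand): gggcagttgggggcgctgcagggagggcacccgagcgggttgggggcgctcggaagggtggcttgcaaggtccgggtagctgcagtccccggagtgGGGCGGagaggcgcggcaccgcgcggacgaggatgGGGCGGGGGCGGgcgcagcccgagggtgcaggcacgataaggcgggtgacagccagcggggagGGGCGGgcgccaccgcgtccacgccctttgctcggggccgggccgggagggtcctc
ABCC2 (chr10:99782390-99782639, plus strand): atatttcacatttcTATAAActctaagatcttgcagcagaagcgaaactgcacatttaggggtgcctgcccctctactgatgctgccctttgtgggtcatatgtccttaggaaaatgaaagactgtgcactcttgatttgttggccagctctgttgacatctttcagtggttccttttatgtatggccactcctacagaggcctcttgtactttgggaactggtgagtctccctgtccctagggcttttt
The ABCB10 stretch was 77.2% G and C with 4 matches to GGGCGG, a pair of them adjoining. The ABCA2 stretch was 65.2% G and C with none of the 5 motifs searched, and the ABCC2 stretch was 45.6% G and C with 1 match to TATAAA, at position -236 from the start. Both strands were searched for each of the motifs below. GGGCGG was found in 18 of the 35 member promoters, beside 42.6% of 35116 promoters searched, TATAAA in 5, beside 10.7%, CCAAT in 6, beside 32% of them, CACGTG in 4, beside 6.34%, and TGAGTCA in 0, beside 4.2%. Among members that moved the same way in all 4 drug comparisons, 3 of the 6 higher ones and 3 of the 5 lower ones with a promoter held GGGCGG.

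The question for each drug was which ABC genes differed from T0 after 36 h in each line. In PC9, 13 of the 31 tested members rose and 8 fell with erlotinib, and 61.8% of all 19108 tested genes were called in that comparison, 32.7% higher and 29.1% lower. With osimertinib 13 rose and 9 fell, against 61.4% of all tested genes, 32.7% higher and 28.7% lower. In H1650, 14 rose and 7 fell with erlotinib, where 36.5% of all tested genes were called, 18.0% higher and 18.5% lower. With osimertinib 14 rose and 6 fell in H1650, where 35.7% of all tested genes were called, 17.8% higher and 17.9% lower. Unless the alternative test of DESeq2 is named, every adjusted p given here comes from the quasi-likelihood test of edgeR. It was adjusted by the Benjamini-Hochberg method over all genes tested in that fit, and a gene was called below 0.05. The share of tested members called was 67.7% and 71.0% in PC9, near the share of all tested genes, and 67.7% and 64.5% in H1650, above it. The median log2 change of the members was 0.09 and 0.03 in PC9, beside 0.07 and 0.06 over all tested genes. In H1650 it was 0.14 and 0.21, beside 0.01 and 0.

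Of the tested members, 12 changed the same way with both drugs in both lines, where 17.6% of all tested genes did so, 8.47% higher and 9.16% lower. ABCA2, ABCA4, ABCA12, ABCC5, ABCC6, ABCC10 and ABCD4 rose, and ABCB10, ABCC4, ABCE1, ABCF1 and ABCF2 fell. For ABCA2, ABCA4, ABCA12, ABCB10, ABCC10 and ABCD4, at least 1 of these calls was lost without a single library, as given below. Of the 31, 29 were called in at least 1 drug comparison, ABCC3 was called in both directions, and ABCC11 was among those called in none. Because both drugs were set against the same T0 libraries of a line, their comparisons are not independent.

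**Figure D1:**
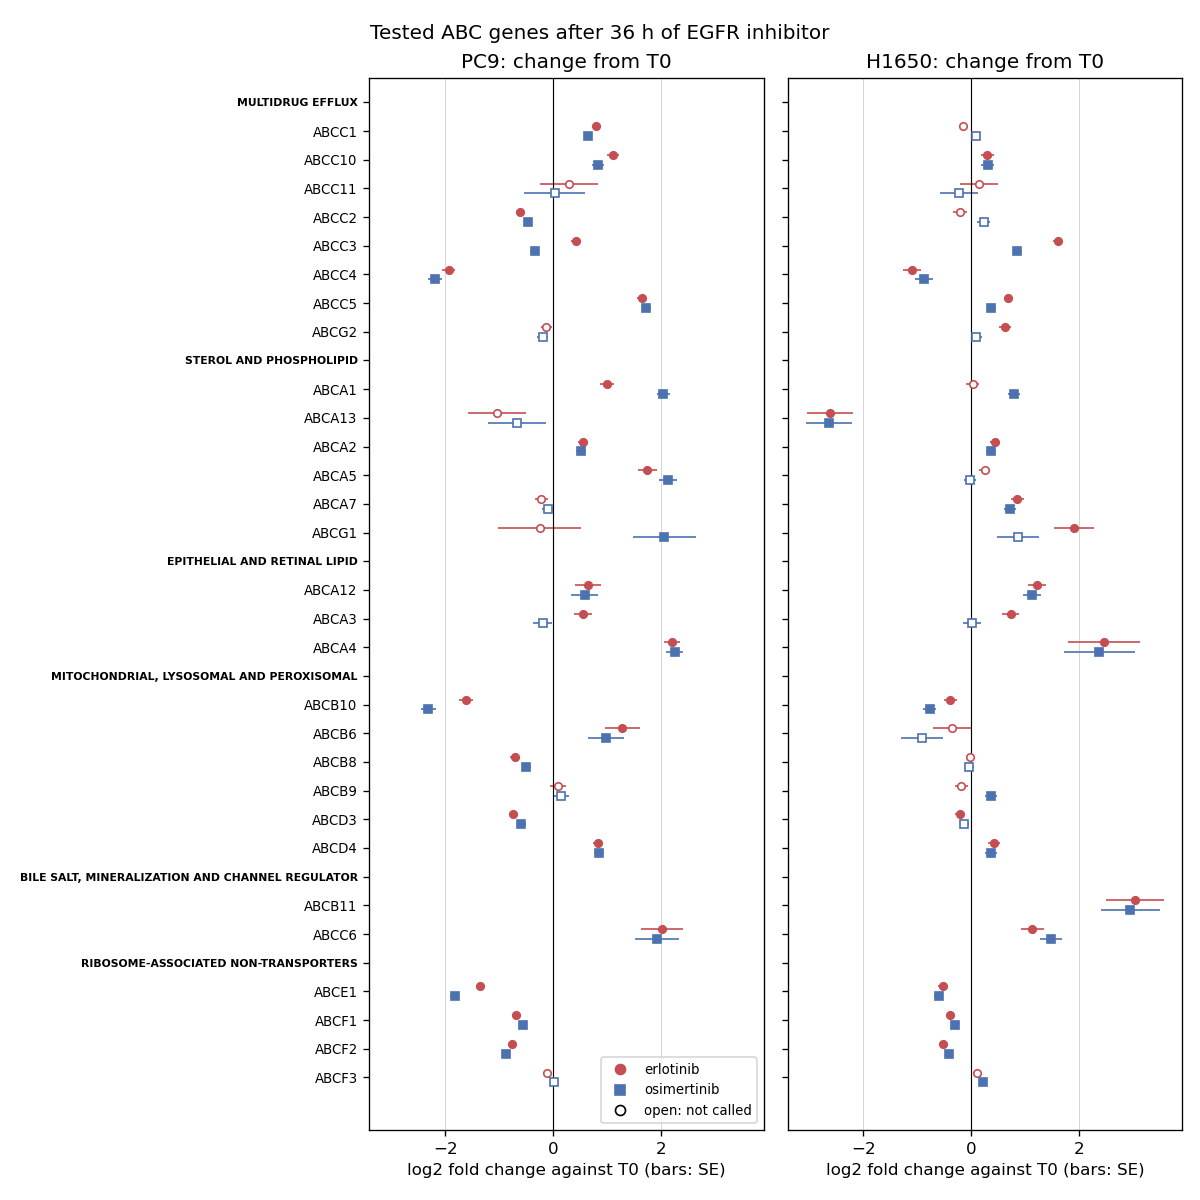
Log2 fold change from T0 of tested ABC members in PC9 and H1650, with erlotinib as circles, osimertinib as squares and standard errors as bars, where filled points passed the adjusted threshold. ABCB11 is left out of the PC9 panel because it had 0 reads there; ABCB10, ABCC4 and ABCE1 lie at the low end in PC9, ABCA13 at the low end in H1650, and ABCA4 rises by 2.20 to 2.46 in both lines.

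Of the drug efflux list, 8 of 9 genes were tested. With erlotinib and osimertinib in turn, 4 and 3 rose and 2 and 3 fell in PC9, and 4 and 3 rose and 1 and 1 fell in H1650. For this list and each list below, the share of all tested genes called was 61.8% and 61.4% in PC9. In H1650 that share was 36.5% and 35.7%. ABCC5, ABCC10 and ABCC1 rose in PC9, ABCC4 fell in both lines, and ABCB1 was not detected at a level that could be tested.

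ABCB1 (chr7:87503633-87713323, minus strand, GRCh38) encodes P-glycoprotein, the multidrug pump of gut, liver and the blood-brain barrier. Both PC9 T0 libraries had 0 ABCB1 reads, both erlotinib libraries 0, and the osimertinib libraries 0 and 5. In H1650 the counts were 6 and 2 at T0, 0 and 2 with erlotinib and 1 and 1 with osimertinib. ABCB1 counts above the floor of 3 reads were found in 2 of the 12 libraries, so no difference was detectable at this depth and no fold is given. A count of 0 allows up to 0.168 CPM in any of the 12 libraries, and such limits and the intervals below cover counting error only, since the reads carry no molecular identifiers.

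ABCC1 (chr16:15949577-16143074, plus strand) encodes the multidrug resistance-associated protein that exports glutathione conjugates and many anticancer drugs. In PC9 it stood at 243 and 238 CPM at T0, 419.9 and 411 CPM with erlotinib and 379.8 and 369.9 CPM with osimertinib. All 4 treated PC9 libraries were above both T0 libraries, and the log2 fold change was 0.79 ± 0.07 (SE, adjusted p = 5.16e-11) with erlotinib and 0.64 ± 0.07 (adjusted p = 3.12e-09) with osimertinib. In H1650 it stood at 295 and 288 CPM at T0, 262 and 264 CPM with erlotinib and 323 and 296 CPM with osimertinib. These H1650 differences did not pass the test, at -0.15 ± 0.07 (adjusted p = 0.0919) and 0.09 ± 0.07 (adjusted p = 0.345), although the erlotinib difference passed under DESeq2 (adjusted p = 0.0274) and with the replicate number as a block (adjusted p = 0.0326). RPKM is CPM per kilobase of the length given in the count table. For ABCC1 that length was 7575 bases, equal to its merged exons and not its genomic span. Per length, ABCC1 was the highest ABC gene in all treated groups and in H1650 T0. It held 54.8 ± 0.84 RPKM in PC9 with erlotinib and 38.5 ± 0.66 RPKM in H1650 T0 (mean ± SD, n = 2). In PC9 T0 it ranked 4th, at 31.7 ± 0.44 RPKM, after ABCF1, ABCE1 and ABCF2.

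ABCG2 (chr4:88090264-88231322, minus strand) encodes the breast cancer resistance protein, a dimeric transporter that exports urate and many kinase inhibitors. The PC9 libraries held 41.7 and 40.9 CPM at T0, 35.6 and 40.0 CPM with erlotinib and 32.2 and 40.3 CPM with osimertinib. Neither PC9 difference passed the test (log2 -0.13 and -0.19, adjusted p = 0.293 and 0.111). With all libraries kept, the osimertinib difference did pass with no expression filter (log2 -0.28, adjusted p = 0.0242). It also passed with a fit per cell line (log2 -0.26, adjusted p = 0.0343). Without the osimertinib library of 40.3 CPM it was -0.36. In H1650 it was 27.3 and 26.3 CPM at T0, 38.0 and 44.3 CPM with erlotinib and 28.0 and 29.1 CPM with osimertinib. It rose in H1650 with erlotinib (log2 0.62 ± 0.11, adjusted p = 3.01e-05), and the osimertinib difference of 0.09 did not pass (adjusted p = 0.551).

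ABCC5 exports cyclic nucleotides and nucleotide analogues. PC9 held 137 and 128 CPM at T0, 412 and 415 CPM with erlotinib and 465 and 413 CPM with osimertinib, rises of 3.11-fold and 3.31-fold. H1650 held 33.4 and 37.6 CPM at T0, 59.1 and 55.6 CPM with erlotinib and 47.3 and 44.6 CPM with osimertinib, rises of 1.61-fold and 1.29-fold. The ABCC5 groups did not overlap in either line, and the adjusted p ran from 3.42e-17 in PC9 to 0.00103 for osimertinib in H1650.

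ABCC4 exports cyclic nucleotides, prostaglandins and nucleoside drugs, and it fell with both drugs in both lines. In PC9 it went from 49.3 and 52.0 CPM at T0 to 12.7 and 13.8 CPM with erlotinib and 10.1 and 12.2 CPM with osimertinib. H1650 began lower, at 8.72 and 7.76 CPM, and held 4.39 and 3.35 CPM with erlotinib and 4.63 and 4.32 CPM with osimertinib. The falls were 3.82-fold and 4.56-fold in PC9 and 2.13-fold and 1.84-fold in H1650.

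ABCC10, which carries taxanes and other lipophilic drugs, stood at 21.7 and 15.99 CPM in PC9 T0, 43.4 and 38.3 CPM with erlotinib and 33.3 and 33.7 CPM with osimertinib. The PC9 rises were 2.17-fold and 1.78-fold. H1650 moved from 20.4 and 20.5 CPM to 25.7 and 24.7 CPM and 25.1 and 25.3 CPM, a log2 change of 0.30 with each drug that passed narrowly (adjusted p = 0.0432 and 0.0420) and was lost without any single H1650 library of the comparison and under DESeq2 (adjusted p = 0.122 and 0.107).

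ABCC3, an exporter of bile salts and glucuronides, was the member called in both directions. PC9 held 113 and 107 CPM at T0, 153 and 142 CPM with erlotinib and 89.6 and 83.9 CPM with osimertinib, so it rose with one drug (log2 0.42, adjusted p = 8.49e-05) and fell with the other (log2 -0.34, adjusted p = 0.00118). In H1650 it rose with both, from 71.2 and 80.9 CPM to 247 and 216 CPM with erlotinib and 129 and 145 CPM with osimertinib, by 3.04-fold and 1.80-fold. ABCC2, the canalicular exporter of bilirubin glucuronides, fell in PC9 from 243 and 245 CPM to 162 and 158 CPM with erlotinib and 176 and 177 CPM with osimertinib. Its H1650 level stayed between 4.80 and 7.39 CPM, with no call in either drug comparison. ABCC11 was at 0.247 to 0.605 CPM in PC9 and 1.78 to 2.84 CPM in H1650 and passed no drug comparison.

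**Figure D2:**
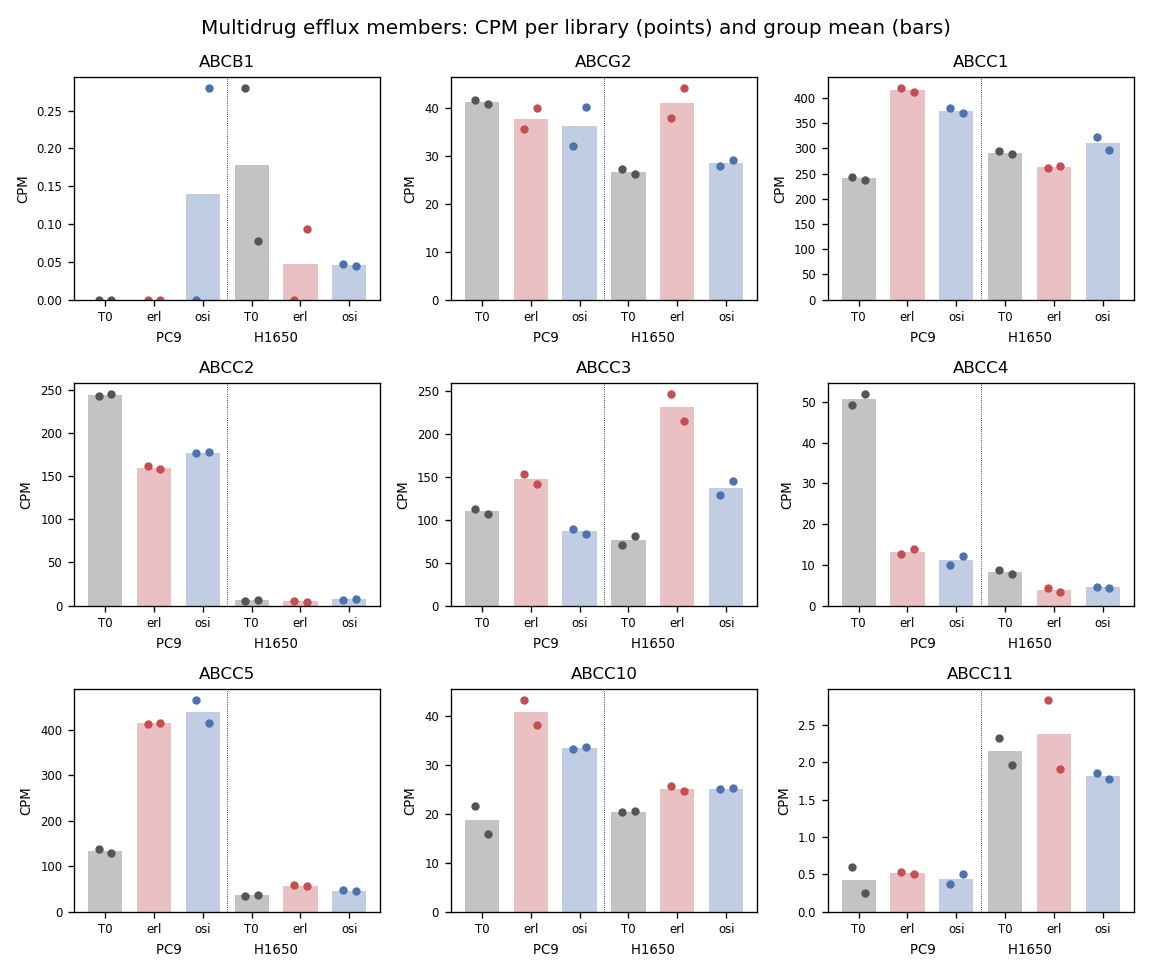
CPM in each library (points) and the group mean (bars) for the drug efflux members in PC9 and H1650 at T0, with erlotinib (erl) and with osimertinib (osi), each panel on its own axis from 0. ABCB1 is at or near the floor in all groups; ABCC5 rises and ABCC4 falls in both lines, and ABCC1 rises in PC9, from 243 and 238 CPM at T0 to 419.9 and 411 CPM with erlotinib.

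Of the 14 members on the list that moves sterols and phospholipids, 6 were tested. With erlotinib and osimertinib, 3 and 4 rose and 0 fell in PC9, and 3 and 3 rose and 1 fell in H1650 (ABCA13 in both cases). ABCA1, which loads cholesterol onto apolipoprotein A-I, stood at 12.96 and 12.5 CPM in PC9 T0, 23.6 and 27.3 CPM with erlotinib and 53.8 and 51.4 CPM with osimertinib. In H1650 it was 18.7 and 17.7 CPM at T0, 16.4 and 20.5 CPM with erlotinib and 34.2 and 28.6 CPM with osimertinib. The PC9 rises were 2.00-fold and 4.13-fold, and H1650 rose by 1.73-fold with osimertinib (adjusted p = 3.82e-06) with no call for erlotinib (log2 0.03, adjusted p = 0.905).

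ABCA5, a lysosomal lipid transporter, rose in PC9 from 2.57 and 2.07 CPM to 7.61 and 7.96 CPM with erlotinib and 9.85 and 10.5 CPM with osimertinib. In H1650 it ran between 27.7 and 37.2 CPM over the 6 libraries, with no call in either drug comparison, though the erlotinib difference (log2 0.25, adjusted p = 0.0708) passed with the replicate number as a block (adjusted p = 0.0412). ABCA2, a lysosomal and endosomal lipid transporter, rose from 123 and 112 CPM to 182 and 164 CPM and 177 and 157 CPM in PC9. H1650 held 56.5 and 51.7 CPM at T0, 78.4 and 67.6 CPM with erlotinib and 75.9 and 63.5 CPM with osimertinib. The ABCA2 log2 changes ran from 0.37 to 0.56, and the smallest, for osimertinib in H1650, was lost without 1 T0 library (0.30, adjusted p = 0.0531) or 1 osimertinib library (0.23, adjusted p = 0.126).

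ABCG1, which exports cholesterol to high-density lipoprotein, was low. PC9 had 2 and 7 ABCG1 reads at T0, 4 and 5 with erlotinib and 25 and 13 with osimertinib, a ratio of osimertinib to T0 of 4.29 with a 95% counting interval of 2.04 to 10.1. The osimertinib call (adjusted p = 0.00313) was lost without the T0 library of 2 reads (log2 1.45, adjusted p = 0.0621) or the osimertinib library of 25 reads (log2 1.67, adjusted p = 0.0565), and the log2 change was 3.17 without the other T0 library. In H1650 it rose with erlotinib from 1.31 and 0.965 CPM to 4.49 and 3.96 CPM (3.73-fold, adjusted p = 0.00013), and the osimertinib libraries, at 2.63 and 1.51 CPM, did not pass (adjusted p = 0.0808) except without the lower one (log2 1.22, adjusted p = 0.0335). ABCA7, a phospholipid transporter linked to phagocytosis, rose in H1650 (log2 0.85 and 0.71) and passed neither PC9 comparison. ABCA13, the largest gene product of the family, fell in H1650 from 2.71 and 3.40 CPM at T0 to between 0.372 and 0.619 CPM in the 4 treated libraries. Its PC9 levels were all under 0.8 CPM and passed neither drug comparison with T0.

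All 3 members with epithelial or retinal lipid cargo rose with erlotinib in both lines, and ABCA4 and ABCA12 also rose with osimertinib. ABCA4, known for clearing retinoids from photoreceptors, stood in PC9 at 6.45 and 7.01 CPM at T0, 31.6 and 30.2 CPM with erlotinib and 30.7 and 33.5 CPM with osimertinib, rises of 4.59-fold and 4.76-fold. In H1650 the counts were 1 and 3 reads at T0, 14 and 6 with erlotinib and 12 and 8 with osimertinib. The H1650 ratios were 5.80 (95% counting interval 1.94 to 23.3) and 5.46 (1.83 to 22.0). These H1650 calls were lost for erlotinib without the erlotinib library of 14 reads (log2 1.66, adjusted p = 0.165), and for osimertinib without the T0 library of 1 read (log2 1.94, adjusted p = 0.0529) or the osimertinib library of 12 reads (log2 2.01, adjusted p = 0.0718).

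ABCA12 carries glucosylceramide into the lamellar granules of skin. In H1650 it rose from 6.02 and 7.25 CPM to 15.1 and 16.02 CPM with erlotinib and 14.99 and 14.1 CPM with osimertinib, by 2.33-fold and 2.18-fold. PC9 held 1.56 and 2.32 CPM at T0, 2.69 and 3.40 CPM with erlotinib and 2.64 and 3.25 CPM with osimertinib. The PC9 calls were narrow (adjusted p = 0.0201 and 0.0422) and were lost under DESeq2 (adjusted p = 0.0574 and 0.0946). The erlotinib call was also lost without 1 T0 library (log2 0.39, adjusted p = 0.252) or 1 erlotinib library (log2 0.46, adjusted p = 0.186), and the osimertinib call without 1 T0 library (log2 0.33, adjusted p = 0.357) or 1 osimertinib library (log2 0.43, adjusted p = 0.228). ABCA3, the surfactant lipid transporter of alveolar type II cells, rose with erlotinib in both lines (log2 0.56 and 0.73), while with osimertinib its differences were -0.19 in PC9 and 0.01 in H1650 and passed in neither.

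**Figure D3:**
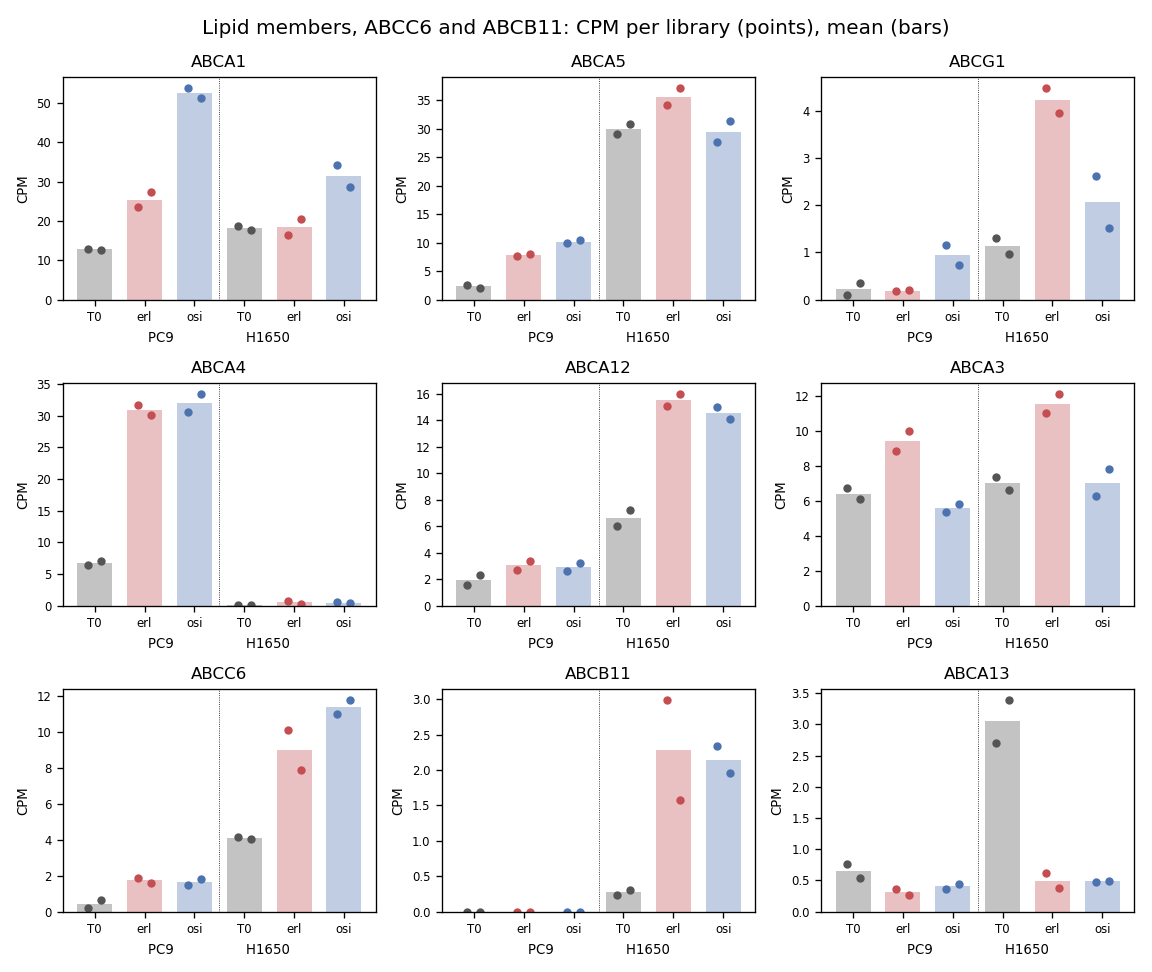
CPM in each library (points) and the group mean (bars) for lipid members, ABCC6 and ABCB11 in PC9 and H1650 at T0, with erlotinib (erl) and with osimertinib (osi), each panel on its own axis from 0. ABCA4 is above 30 CPM in treated PC9 libraries and under 1 CPM in H1650 and ABCB11 has 0 reads in PC9; ABCA1 is highest with osimertinib, at 53.8 and 51.4 CPM in PC9.

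ABCC6, whose loss causes ectopic mineralization, and ABCB11, the bile salt export pump, both rose in H1650. ABCC6 went from 4.15 and 4.05 CPM to 10.1 and 7.91 CPM with erlotinib and 11.03 and 11.8 CPM with osimertinib. In PC9 it went from 4 and 13 reads, or 0.202 and 0.642 CPM, to 1.88 and 1.60 CPM and 1.48 and 1.79 CPM, a log2 change of 2.02 and 1.93 that was 3.06 and 2.97 without the T0 library of 13 reads. ABCC6 has near-identical pseudogene copies, so reads may be split among them and its levels are uncertain. ABCB11 had 0 reads in every PC9 library, and in H1650 it had 5 and 8 reads at T0, 58 and 34 with erlotinib and 49 and 44 with osimertinib, a rise of 8.17-fold and 7.71-fold.

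The ribosome-associated members fell, except for ABCF3. ABCE1, which splits ribosomes for recycling after termination, stood in PC9 at 206 and 225 CPM at T0, 81.5 and 86.5 CPM with erlotinib and 64.2 and 57.1 CPM with osimertinib, falls of 2.56-fold and 3.54-fold. H1650 held 177 and 175 CPM at T0, 115 and 128 CPM with erlotinib and 113 and 118 CPM with osimertinib, falls of 1.45-fold and 1.52-fold. The ABCE1 exons overlap genes on the opposite strand, OTUD4 and ANAPC10, and the strand setting of the counting is not given in the sources used here.

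ABCF1, which binds initiation factor complexes and ribosomes, fell from 198 and 198 CPM to 119.9 and 126 CPM with erlotinib and 132 and 137 CPM with osimertinib in PC9. In H1650 it fell from 156 and 168 CPM to 122 and 124 CPM and 129 and 134 CPM. ABCF2 fell from 177 and 186 CPM to 108 and 107 CPM and 99.7 and 99.6 CPM in PC9, and from 107 and 109.5 CPM to 72.4 and 77.6 CPM and 78.5 and 83.8 CPM in H1650. ABCF3 stayed between 57.1 and 86.7 CPM over the 12 libraries, and its sole drug call was a rise with osimertinib in H1650 (log2 0.21, adjusted p = 0.0296). Per length, the 4 ribosome-associated genes made up 41.4% to 43.0% of the summed RPKM of the family in PC9 T0 and 25.4% to 26.4% in treated PC9 libraries. In H1650 the share was 44.7% to 45.6% at T0 and 33.4% to 37.1% after treatment. Over the same libraries the efflux list went from 33.1% to 33.8% in PC9 T0 to 45.4% to 48.4%, and from 27.8% in H1650 T0 to 32.7% to 36.2%. These sums were weighted to ABCC1 and ABCC5, which went from 31.7 to 54.8 RPKM and from 11.7 to 36.4 RPKM in PC9 with erlotinib, and the efflux list's median log2 change with osimertinib in PC9 was -0.08.

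Of the mitochondrial, lysosomal and peroxisomal members, 8 of 9 were tested, and with erlotinib and osimertinib 2 and 3 rose and 3 and 3 fell in PC9, and 2 and 3 rose and 2 and 1 fell in H1650. ABCB10, a mitochondrial inner membrane transporter needed for heme synthesis in red cell precursors, held 38.4 and 40.2 CPM in PC9 T0, 13.3 and 12.4 CPM with erlotinib and 9.06 and 6.62 CPM with osimertinib. In H1650 it held 32.5 and 31.4 CPM at T0, 21.8 and 27.0 CPM with erlotinib and 20.1 and 17.3 CPM with osimertinib. The falls were 3.06-fold and 4.97-fold in PC9 and 1.31-fold and 1.71-fold in H1650, and the erlotinib call in H1650 (adjusted p = 0.0118) was lost without 1 T0 library (log2 -0.37, adjusted p = 0.0580) or 1 erlotinib library (log2 -0.24, adjusted p = 0.227). ABCB8, another mitochondrial inner membrane transporter, fell in PC9 (log2 -0.71 and -0.49), and its H1650 differences of -0.02 and -0.03 did not pass.

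ABCD4, which acts in lysosomal release of vitamin B12, rose in PC9 from 61.2 and 56.3 CPM to 104 and 103 CPM with erlotinib and 109 and 103 CPM with osimertinib. In H1650 it went from 18.7 and 17.2 CPM to 26.8 and 21.1 CPM and 22.1 and 23.9 CPM. These last calls were lost for erlotinib without 1 erlotinib library (log2 0.24, adjusted p = 0.153), and for osimertinib without 1 T0 library (log2 0.30, adjusted p = 0.0972) or 1 osimertinib library (log2 0.30, adjusted p = 0.0907). ABCD3, a peroxisomal fatty acid transporter, fell in PC9 with both drugs (log2 -0.74 and -0.59) and in H1650 with erlotinib (log2 -0.21). ABCB6, a porphyrin transporter, rose in PC9 (log2 1.28 and 0.98) with H1650 differences of -0.35 and -0.91 that did not pass, and ABCB9, a lysosomal peptide transporter, rose with osimertinib in H1650 alone among the drug comparisons (log2 0.36, adjusted p = 0.0162).

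**Figure D4:**
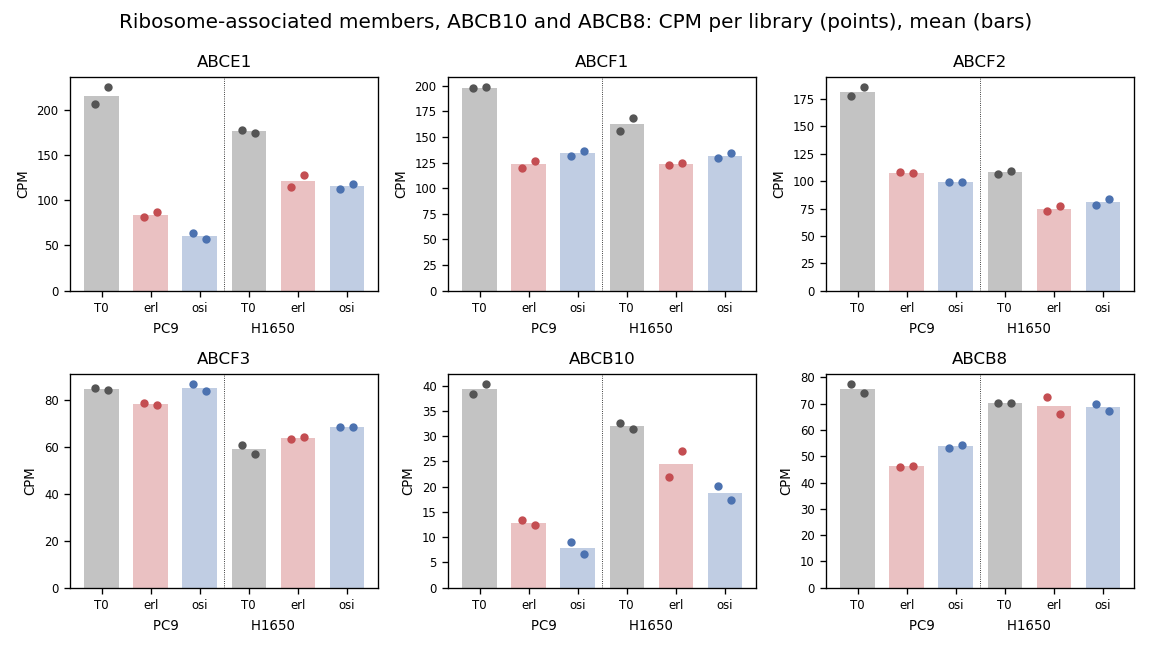
CPM in each library (points) and the group mean (bars) for ABCE1, ABCF1, ABCF2, ABCF3, ABCB10 and ABCB8 in PC9 and H1650 at T0, with erlotinib (erl) and with osimertinib (osi), each panel on its own axis from 0. ABCE1 goes from 206 and 225 CPM at T0 to 64.2 and 57.1 CPM with osimertinib in PC9, and ABCF3 stays between 57.1 and 86.7 CPM over all libraries.

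At T0 the lines differed in 25 of the 31 tested members, 10 higher in H1650 and 15 lower, where 69.6% of all tested genes were called, 35.8% higher and 33.8% lower. ABCC2, whose promoter is printed above, was 39.7-fold lower in H1650. ABCC4 was 6.16-fold lower in H1650 and ABCC5 3.73-fold lower. ABCA4 was higher in PC9 by a counting ratio of 79.7 (95% interval 30.8 to 295), with 4 reads over both H1650 libraries. In the other direction, ABCA5 was 12.9-fold, ABCC6 9.56-fold and ABCC11 5.00-fold higher in H1650, and ABCG1 had a counting ratio of 4.99 (2.44 to 11.5). The ABCC6 and ABCC11 folds are uncertain, as PC9 T0 held 0.42 ± 0.31 and 0.43 ± 0.25 CPM (SD, n = 2). ABCB11 had 0 reads in PC9, so its H1650 group mean was set against the PC9 floor of 3 reads per library. The mean was 1.79-fold that floor at T0, 17.03-fold with erlotinib and 12.8-fold with osimertinib. These ratios leave out the spread between H1650 libraries, which held 2.99 and 1.58 CPM with erlotinib. Among the drug efflux genes ABCC1 was 1.21-fold higher in H1650 and ABCG2 1.54-fold lower, and all 4 ribosome-associated members were lower in H1650.

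Whether a drug change differed between the lines was tested directly, by subtracting the PC9 change from the H1650 change. It differed for 17 of the 31 tested members with erlotinib, 10 upward and 7 downward, where 40.8% of all tested genes did, 21.1% upward and 19.8% downward. With osimertinib it differed for 18, 10 upward and 8 downward, where 41.9% of all tested genes did, 21.5% upward and 20.5% downward. ABCC1 changed more positively in PC9 with erlotinib (difference -0.94 ± 0.10, adjusted p = 4.66e-09) and with osimertinib (-0.55 ± 0.10, adjusted p = 2.41e-05). The ABCG2 change with erlotinib was more positive in H1650 (0.75 ± 0.15, adjusted p = 0.000147), and the osimertinib difference of 0.29 did not pass (adjusted p = 0.131) except without 1 PC9 osimertinib library (0.46, adjusted p = 0.0226). ABCC4, ABCB10 and ABCE1 fell further in PC9 with both drugs, and ABCC5, ABCA5, ABCA1 and ABCB6 changed more positively in PC9 with both. ABCA7 also changed more positively in H1650 with both (1.07 and 0.81).

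**Figure D5:**
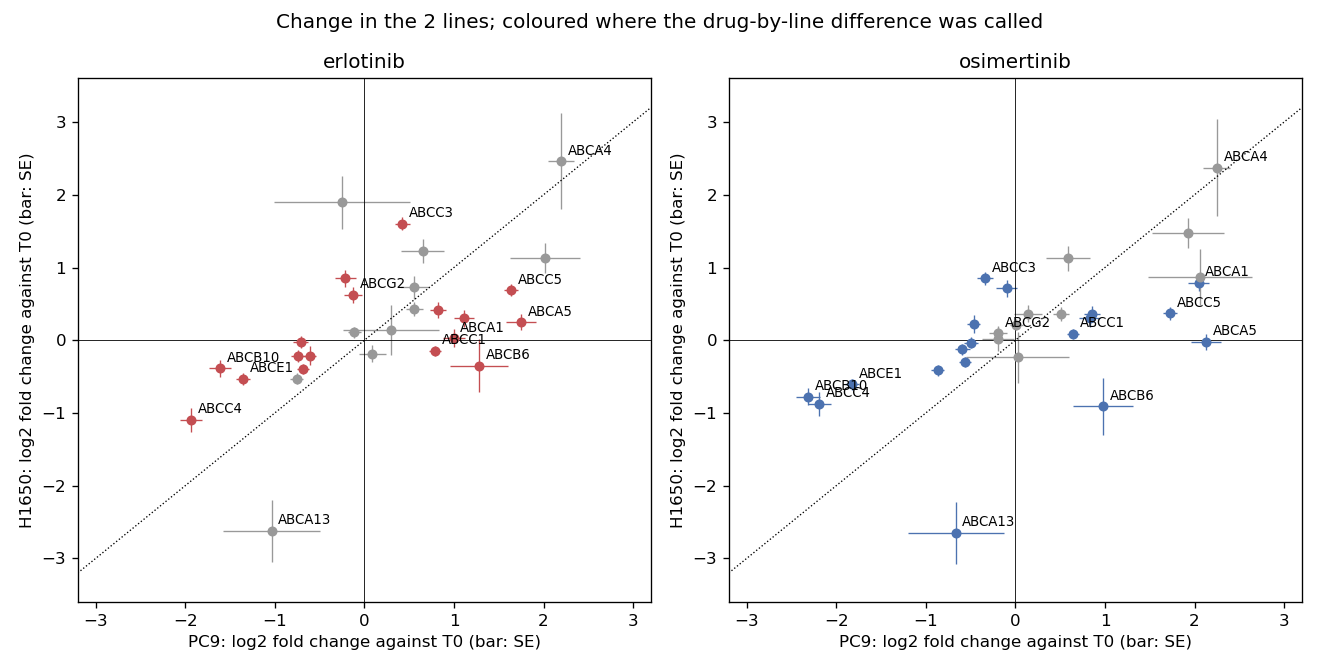
Log2 fold change from T0 in PC9 (horizontal axis) against that in H1650 (vertical axis) for tested ABC members, without ABCB11, which had 0 reads in PC9, with erlotinib on the left and osimertinib on the right. Bars are standard errors, the dotted line marks equal change, and coloured points passed the test of the difference between lines; ABCC4, ABCB10 and ABCE1 lie left of the line among the falling members, and ABCC5 and ABCA5 right of it.

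Osimertinib and erlotinib were given at 0.1 and 10 µM, so the direct contrast sets 2 treatments side by side and does not compare the drugs at matched doses. In PC9, 8 tested members differed between them, 4 in each direction, where 16.6% of all tested genes did, 10.1% higher and 6.41% lower. ABCA1 was higher with osimertinib (log2 1.05, adjusted p = 5.36e-08), as was ABCG1 (counting ratio 5.13, 95% interval 2.44 to 12.1), though the ABCG1 call was lost without the osimertinib library of 25 reads (log2 1.93, adjusted p = 0.0950). ABCC3 (log2 -0.76) and ABCA3 (log2 -0.75) were lower with osimertinib. In H1650, 8 tested members also differed, 4 in each direction, where 8.75% of all tested genes did, 5.02% higher and 3.73% lower. ABCA1 (log2 0.76) and ABCB9 (log2 0.55) were higher with osimertinib in H1650, and ABCC3 (log2 -0.75) and ABCA3 (log2 -0.72) were lower. Without 1 erlotinib library or without 1 osimertinib library 4 members were called in H1650, and the ABCA3 call was among those lost (log2 -0.63, adjusted p = 0.0608, and -0.56, adjusted p = 0.114).

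Genes that act beside the transporters were counted on lists. Among all tested genes, 61.8% and 61.4% were called with erlotinib and osimertinib in PC9, and 36.5% and 35.7% in H1650. The liver X receptors (LXR) switch on ABCA1 and ABCG1 in response to oxysterols, and all 20 genes of the LXR list were tested. With erlotinib and osimertinib 10 and 10 rose and 5 and 4 fell in PC9, and 6 and 12 rose and 3 and 1 fell in H1650, with medians of 0.27, 0.23, 0.17 and 0.41. MYLIP, the ligase that degrades the low-density lipoprotein receptor, rose in all 4 (log2 0.80, 1.56, 0.82 and 0.92), as did SREBF1, the activator of fatty acid synthesis (0.28, 0.70, 0.49 and 0.93), and the LXR partners RXRA (0.78, 0.59, 0.62 and 0.56) and RXRB (1.12, 1.10, 0.36 and 0.42). The list's highest changes were SMPDL3A in PC9 (2.40 with osimertinib) and TTC39B in H1650 (1.04 with erlotinib). Its lowest was LPL in both lines, which had 9 and 17 reads in PC9 T0 and 0 and 1 with erlotinib and at most 6 reads in H1650, so no fold is given.

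Of the xenobiotic sensors and enzymes, 22 of 27 were tested. With erlotinib and osimertinib 18 and 17 rose and 0 and 0 fell in PC9, and 11 and 7 rose and 0 and 4 fell in H1650. Among all tested genes 32.7% and 32.7% rose and 29.1% and 28.7% fell in PC9. The H1650 shares were 18.0% and 17.8% higher and 18.5% and 17.9% lower. The medians were 0.99, 0.81, 0.55 and 0.09, and 0.86, 0.79, 0.55 and 0.36 with genes at the floor set to their bound or left out. AHR, the aryl hydrocarbon receptor, rose in all 4 (log2 1.12, 0.74, 0.69 and 0.90), as did the epoxide hydrolases EPHX1 (1.44, 1.47, 0.93 and 0.71) and EPHX2 (1.498, 1.30, 1.10 and 1.02), GSTM3 (1.29, 1.15, 1.44 and 1.08), SULT1A1 (0.83, 0.70, 1.47 and 1.37) and the vault protein MVP (1.29, 1.59, 0.43 and 0.92). GSTA4 rose furthest in PC9 (4.54 and 4.67), from a T0 level close to the floor, 0.275 ± 0.039 CPM (SD, n = 2). CYP1A1, the classic AHR target, moved both ways in H1650, from 9.23 ± 1.0 CPM at T0 (SD, n = 2) to 21.6 ± 5.7 CPM with erlotinib and 2.15 ± 0.27 CPM with osimertinib, and both differences passed. AHRR (log2 -1.03), CYP1B1 (-0.36) and NFE2L2 (-0.31) also fell with osimertinib in H1650. In PC9 the lowest change was that of KEAP1 (log2 -0.06), which did not pass. In H1650 the list's extremes, GSTP1 and UGT1A1, were at 3 reads or fewer in every library, so the GSTP1 call with erlotinib rests on the floor.

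Of the uptake transporters 13 of 17 were tested, and with erlotinib and osimertinib 5 and 7 rose and 5 and 6 fell in PC9, and 5 and 5 rose and 3 and 7 fell in H1650, with medians of -0.08, 0.28, -0.25 and -0.26. SLC29A1, the equilibrative nucleoside transporter, fell in all 4 (log2 -2.04, -2.16, -1.26 and -1.28). SLC15A2, a peptide transporter (2.36, 3.69, 1.34 and 1.49), and SLC22A18 (1.15, 1.03, 0.51 and 0.80) rose in all 4. SLC47A2 had the highest PC9 change (3.53 and 3.71), and it is an organic cation exporter, though counted on this list. SLC28A3, a concentrative nucleoside transporter, had the highest change in H1650 (2.41 with erlotinib, from 4 and 3 reads to 21 and 12). SLCO2A1, the prostaglandin transporter, had the lowest change in both lines, from 26 and 37 reads at T0 to 1 and 2 with erlotinib in PC9 and from 26 and 33 reads to 1 and 7 with osimertinib in H1650.

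ABC genes outside the symbol rule were TAP1 and TAP2, which form the peptide transporter of antigen presentation, and CFTR, the chloride channel, which had at most 8 reads and was not tested. TAP1 rose in PC9 (log2 0.83 and 1.16) and in H1650 with osimertinib (0.58), and its H1650 erlotinib difference of 0.14 did not pass. TAP2 fell in PC9 (log2 -0.99 and -0.97), with H1650 differences of -0.09 and 0.17 that did not pass. The 15 other ABC-named rows, pseudogenes, antisense and readthrough genes among them, had at most 62 reads in a library.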

How the data were processed

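RNA-seq of polyadenylated RNA was analysed from PC9 and H1650 cells in 6 groups of 2 libraries, grouped by their labels. The authors deposited raw counts, as whole reads per gene from featureCounts in the DolphinNext pipeline, without normalization. The submitters' processing notes name GRCh38 and DESeq2. The aligner and the strand setting of the counting are not given in the sources used here. Some members have opposite-strand exon overlap, among them ABCE1, ABCA12, ABCB8, ABCB9, ABCC10 and ABCC11. Whether their reads were kept apart from those of the genes overlapping them is therefore not known, and their levels are uncertain. Exons of ABCA5, ABCB6, ABCC11, ABCD4 and ABCF2 also overlap another gene on the same strand, where reads cannot be told apart by strand.

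The counts were fitted in R 4.3.3 with edgeR 4.0.16, as group means over 12 libraries with trimmed mean of M values scaling and a filter by group that kept 19108 of 60591 genes. Quasi-likelihood tests gave p-values, adjusted by Benjamini-Hochberg over the genes kept, and a gene was called below 0.05. The standard error is the log2 fold change over the square root of F. RPKM used the table's length column. Library totals had a median of 21581420.5, and the common biological coefficient of variation was 0.0656. The scripts were tested on simulated counts. Alternatives were DESeq2 1.42.0, its size factors, other filters, a fit per line, the replicate number as a block, a threshold of 0.01 and each library left out. Positions are from GENCODE 29 on GRCh38.

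Members and lists were chosen with earlier results of these data known. Named in every library were ABCB1, ABCC1, ABCG2, members called the same way in all 4 drug comparisons, and the 3 highest and 3 lowest called changes per drug comparison with a mean of at least 1 CPM. The 4 highest and 4 lowest called differences were named for the T0 comparison and, by the mean over both drugs among members called with both, for the drug-by-line comparison, and the 2 highest and 2 lowest for osimertinib against erlotinib. From other lists, genes called the same way in all 4 drug comparisons and each list's extremes per line were named. Other members are named to account for them, except that some are included in the counts and not reported individually here or drawn in the plots.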

Additional observations from a re-analysis of the deposited data

Results flagged for a closer look

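Drug changes that differed between the lines by a direct test in edgeR are given here as the log2 change in H1650 minus that in PC9, erlotinib first and osimertinib second. The difference was positive for ABCB10 (1.23 and 1.54), ABCC4 (0.84 and 1.31) and ABCE1 (0.82 and 1.22), which fell further in PC9, and for ABCC3 (1.18 and 1.19), which was higher in H1650 after either drug. It was negative for ABCA1 (-0.97 and -1.26), ABCA5 (-1.498 and -2.16), ABCC1 (-0.94 and -0.55) and ABCC5 (-0.95 and -1.36), each with the more positive change in PC9. ABCB6 differed by -1.63 and -1.89, and both of its calls were lost without 1 H1650 T0 library (-0.89, adjusted p = 0.236, and -1.15, adjusted p = 0.125). ABCG2 differed with erlotinib alone (0.75). Apart from ABCC1 and ABCG2, these genes were picked for the highest and lowest mean of the differences with both drugs, among members called with both. The cause of each difference was not tested.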

How the results depend on the processing

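Of 1827 values recomputed for 104 gene results, 1767 kept their direction and side of the threshold, 46 lost the call, 11 gained one and 3 changed sign, and 82 of the 104 results kept both under every alternative run. Leaving out each library in turn gave 19 to 23 called members for erlotinib and 19 to 22 for osimertinib in PC9, 15 to 21 and 15 to 20 in H1650, 24 to 27 for the lines at T0, 16 to 18 and 15 to 18 for the drug-by-line differences, and 6 to 8 in PC9 and 4 to 10 in H1650 for osimertinib against erlotinib. That last H1650 count of 8 was 5 at an adjusted p below 0.01. The values that changed sign were not called: over the libraries left out, ABCG1 with erlotinib in PC9 ran from -0.87 to 0.86, positive without PC9 T0 replicate 2, and ABCA5 with osimertinib in H1650 from -0.12 to 0.061, positive without H1650 T0 replicate 2 or H1650 osimertinib replicate 1. With the replicate number as a block, 21 and 22 members were called in PC9, 24 and 20 in H1650, 26 between lines at T0, 22 and 18 for the drug-by-line differences and 11 and 10 for osimertinib against erlotinib. Of 15 correlations of same-numbered deviations, from -0.0615 to 0.166, 4 were over 0.1. Such values cannot decide whether the numbers pair the libraries, and the main fit did not pair them. Replicates differed by more than sampling noise. Depth limits the members near the floor, ABCB1 above all. The cause of each change was not tested.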
